A study of Homo sapiens with 6 samples.

Results

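AEG-1, the protein encoded by MTDH, was examined by PAR-CLIP, setting the library titled PAR-CLIP AEG1 against the unirradiated library titled PAR-CLIP negative ctrl. These are 2 of the 6 libraries of the series, and they were chosen by title alone. Together they listed 60206 of the 72385 called sites, 60085 in PAR-CLIP AEG1 and 121 in its control. Both libraries came from AEG-1-14 cells, a stable derivative of the hepatoblastoma line HepG3 that stably expresses AEG1 carrying a C-terminal HA tag. Both went through RNase I digestion, anti-HA precipitation and gel transfer. The AEG1 library came from cells irradiated at 365 nm and the control from cells without UV. The control therefore also contained the tagged protein, and no library without the tag was analysed here. Each side was 1 library, so no difference below has a replicate check and no test between the conditions was possible.

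AEG-1 is a protein of the endoplasmic reticulum membrane with a cytosolic domain that lacks a classical RNA-binding fold. In PAR-CLIP, near-UV light bonds a photoreactive nucleoside in the RNA to a protein in direct contact with it, after which the RNA is trimmed, the protein is precipitated and the attached fragments are sequenced. The labels do not name the nucleoside. A sample without UV is meant to lack such bonds, and so to show RNA that comes through the precipitation and the gel unbonded. Where the RNA of this control came from was not tested.

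Each site had a RefSeq mRNA accession, a first and a last base on that mRNA, and a score by the authors. No definition of the score was given. From its values it was read as a log2 amount on a scale of its own for each mRNA, and the folds and multiples below rest on that reading. The score was compared within the same mRNA. The only exception was a cut at the median AEG1 score over all mRNAs, which is named where it is used. On the shared mRNAs, some sites lay above the lowest score of their mRNA and up to 10 times it on the linear scale. Of these, 48 of 69 control sites and 163 of 337 AEG1 sites were whole multiples within 2%. How many would be whole multiples by chance was not worked out, so the values bear the reading out at most in part. Read depth is unknown, because no read counts were at hand. The lowest score on an mRNA was the same in both libraries, within 0.01, on 10 of the 65 mRNAs that had sites in both, lower in AEG1 on 22 and higher on 33. Whether scores were scaled by library is not known, so UV and sequencing depth cannot be told apart in a difference between the libraries. Of 14 liver and hepatoblastoma markers, 13 had a PAR-CLIP AEG1 site and 4 a control site (ALB, APOB, SERPINA1 and KRT8), with DLK1 the member without a site. Of 20 markers of other cell types, 4 had an AEG1 site (CD14, CD68, LYZ and ACTA2) and 0 a control site.

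The irradiated library listed sites on far more mRNAs, while the typical site had a like width in both libraries. PAR-CLIP AEG1 sites lay on 8009 transcripts of 8002 genes, and the control sites on 66 transcripts of 66 genes. The median width was 73 nt in AEG1 (95% interval of the median 72 to 73) and 71 nt in the control (65 to 74). The lower quartiles, 54 and 55 nt, were also close. The upper quartiles were 105 and 82 nt, and the widest control site was 139 nt. Sites of 300 nt or more made up 1411 of the AEG1 sites (2.35%, exact Clopper-Pearson 95% interval 2.23 to 2.47) and 0 of 121 control sites, which allows a share of up to 3.0%. These intervals, like all others here, cover counting error only. On the 65 mRNAs with sites in both libraries, 139 of 649 AEG1 sites (21.4%) were 300 nt or more. Sites of 25 nt or less made up 0.241% of the AEG1 sites (0.204 to 0.284) and 3.31% of the control sites (0.908 to 8.25), the latter being 4 sites.

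**Figure D1:**
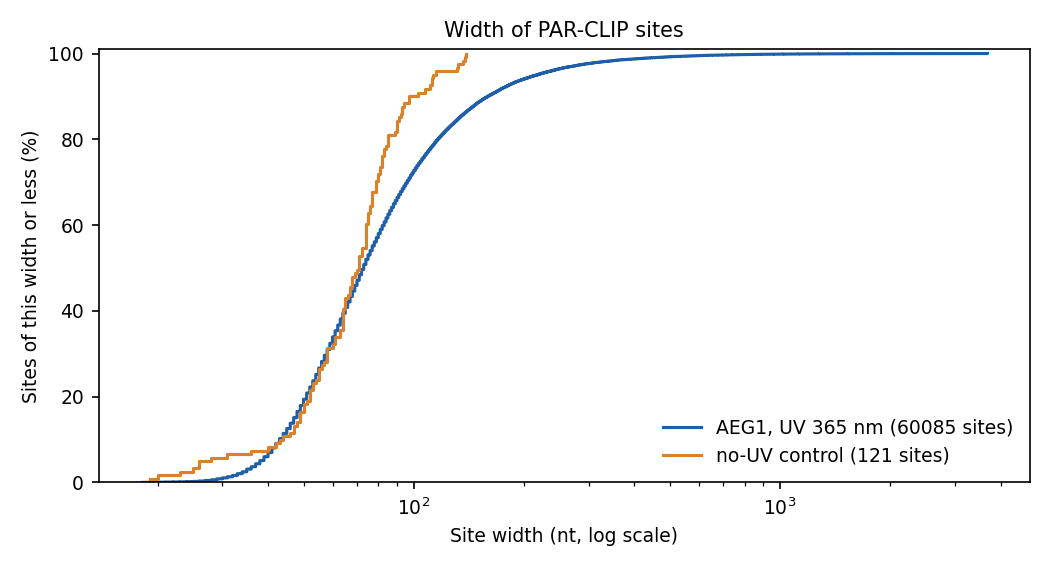
Cumulative percentage of sites (vertical axis) up to each width in nt (horizontal axis, log scale) for the 60085 PAR-CLIP AEG1 sites and the 121 no-UV control sites. The curves run together up to about their medians of 73 and 71 nt, and beyond that the AEG1 curve extends past 1000 nt while the control ends at 139 nt.

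Most mRNAs with a control site had 1, and a few carried most of the rest. A single site was listed on 51 of the 66 control transcripts, and 15 held 2 or more. ALB held 13 control sites, C3 10 and EEF1A1 8. Without the 4 mRNAs with most sites, the control listed 78. In PAR-CLIP AEG1, 15.7% of transcripts had 1 site, the median was 5 and the highest number was 90.

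Nearly every control site lay inside a site of the AEG1 library. Of the 66 control transcripts, 65 (98.5%, lower bound 91.8%) also held an AEG1 site, and of the 121 control sites, 120 (99.2%, lower bound 95.5%) overlapped one by at least 1 nt. A total of 117 control sites (96.7%) were wholly inside 1 AEG1 site. The 4 exceptions were on APOB, LRP5 and RAPGEF1, where the sites overlapped in part, and on SPN, where PAR-CLIP AEG1 listed no site. Of 8528 nt covered by the control on the 65 shared mRNAs, 99.6% was covered by AEG1 sites, and 5.09% of the 167001 nt covered by AEG1 was covered by the control. AEG1 sites covered 73.6% of these mRNAs, each measured up to the last base that any library listed, so an overlap of most control sites is also what that cover alone would give. Whether the positions coincide beyond it was not tested.

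**Figure D2:**
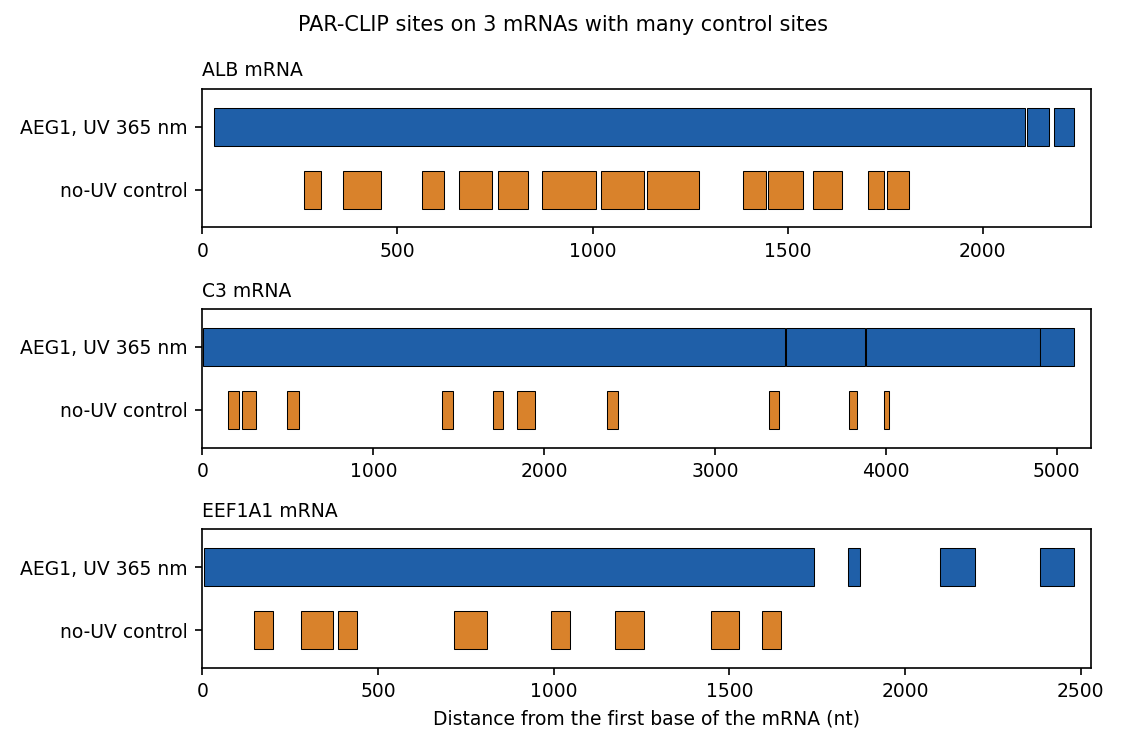
Sites along ALB, C3 and EEF1A1, drawn to scale as distance from the first base of the mRNA in nt; each box is 1 site, with PAR-CLIP AEG1 above and the no-UV control below. Rows of 8 to 13 narrow control sites lie under AEG1 sites of 1738 to 3409 nt.

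On the mRNAs that led the control, 1 AEG1 site spanned many separate control sites. ALB, the mRNA of serum albumin, held 13 control sites between nt 261 and 1811, with widths of 40 to 139 nt and scores of -3.89 to -0.57. In PAR-CLIP AEG1 it held 3 sites, and the one from nt 29 to 2107, with a score of 5.22, contained all 13. The remaining pair of AEG1 sites, at the far end of ALB, had scores of -2.30 and -3.89, no higher than several control sites.

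C3, the central complement component, held 10 control sites from nt 150 to 4015, with scores of -1.04 to -0.04. In PAR-CLIP AEG1 it held 4 nearly adjoining sites from nt 3 to 5101, and the widest, from nt 3 to 3411 with a score of 8.05, contained 8 of the control sites. EEF1A1, which delivers aminoacyl-tRNA to the ribosome, held 8 control sites with scores of -3.48 to -1.15, all inside an AEG1 site from nt 4 to 1741 with a score of 5.20. Beyond it, 3 AEG1 sites reached nt 2481 at scores of -3.48 to -2.48, where the control listed none. Over all shared mRNAs, 10 AEG1 sites held 2 or more control sites, 57 control sites in all. Of the 65 shared mRNAs, 56 had more AEG1 than control sites, 7 had more control sites and 2 had equal numbers.

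Within the same mRNA, AEG1 scores were above control scores. The highest AEG1 score was at least 1 above the highest control score, a doubling, on 64 of 65 shared mRNAs (98.5%), and at least 1 below it on 0 (0%). It was at least 2 above on 63 and at least 5 above on 46. The median difference was 5.81 (95% interval of the median 5.37 to 6.43), a 56-fold ratio, with quartiles of 4.88 and 6.75. Site by site, the AEG1 score was higher at 120 of 120 overlapped control sites, and at 119 (99.2%) by 1 or more, with a median difference of 6.51. These 120 comparisons used 73 AEG1 sites and are not independent: the wide ALB site alone entered 13 times.

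The control sites were faint on the scale of their own mRNA. On the linear scale, each score was taken as a multiple of the lowest score on that mRNA in either library. Control sites reached at most 10.0 times the lowest (on ALB), with a median of 1.5 over 120 sites. Of these, 69 were above the lowest. The others were themselves at the lowest, so their multiple of 1 follows from the definition and holds the control median down. Among AEG1 sites up to 10 times the lowest, 337 of 395 were above it. AEG1 sites on the same mRNAs had a median of 6.36 over 649 sites, and the wide ALB site reached 554 times the lowest. Summed over sites, ALB held 50.0 such multiples in the control and 558 in AEG1. C3 held 14.0 and 825, and EEF1A1 22.1 and 415. On these 3 mRNAs the control total was thus a small part of the AEG1 total, although the control listed more sites.

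The size of the difference went with width. On 3815 mRNAs with 6 or more AEG1 sites, the median Spearman's rho between score and width within an mRNA was 0.665, a description over sites that share a library. With log2 of the width subtracted from each score, the median difference per overlapped control site was 2.54 (2.34 to 2.71), a 5.83-fold ratio, and 118 of 120 were above 0. The exceptions were on ABCC3 at -0.42 and RAPGEF1 at -0.66. The interval takes the 120 differences as independent, although they share 73 AEG1 sites. When the scores of all sites on an mRNA were instead summed on the linear scale, the difference had a median of 6.50 and was above 0 on every one of the 65 mRNAs, from 2.77 on PLCG2 to 11.18 on APOB. With the median score per mRNA the median difference was 3.0, and with the highest score per nt it was 2.28. The lowest score per mRNA differed by a median of 0.084, with 26 mRNAs at least 1 higher in AEG1, so many of the faintest AEG1 sites were as low as the faintest control sites.

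**Figure D3:**
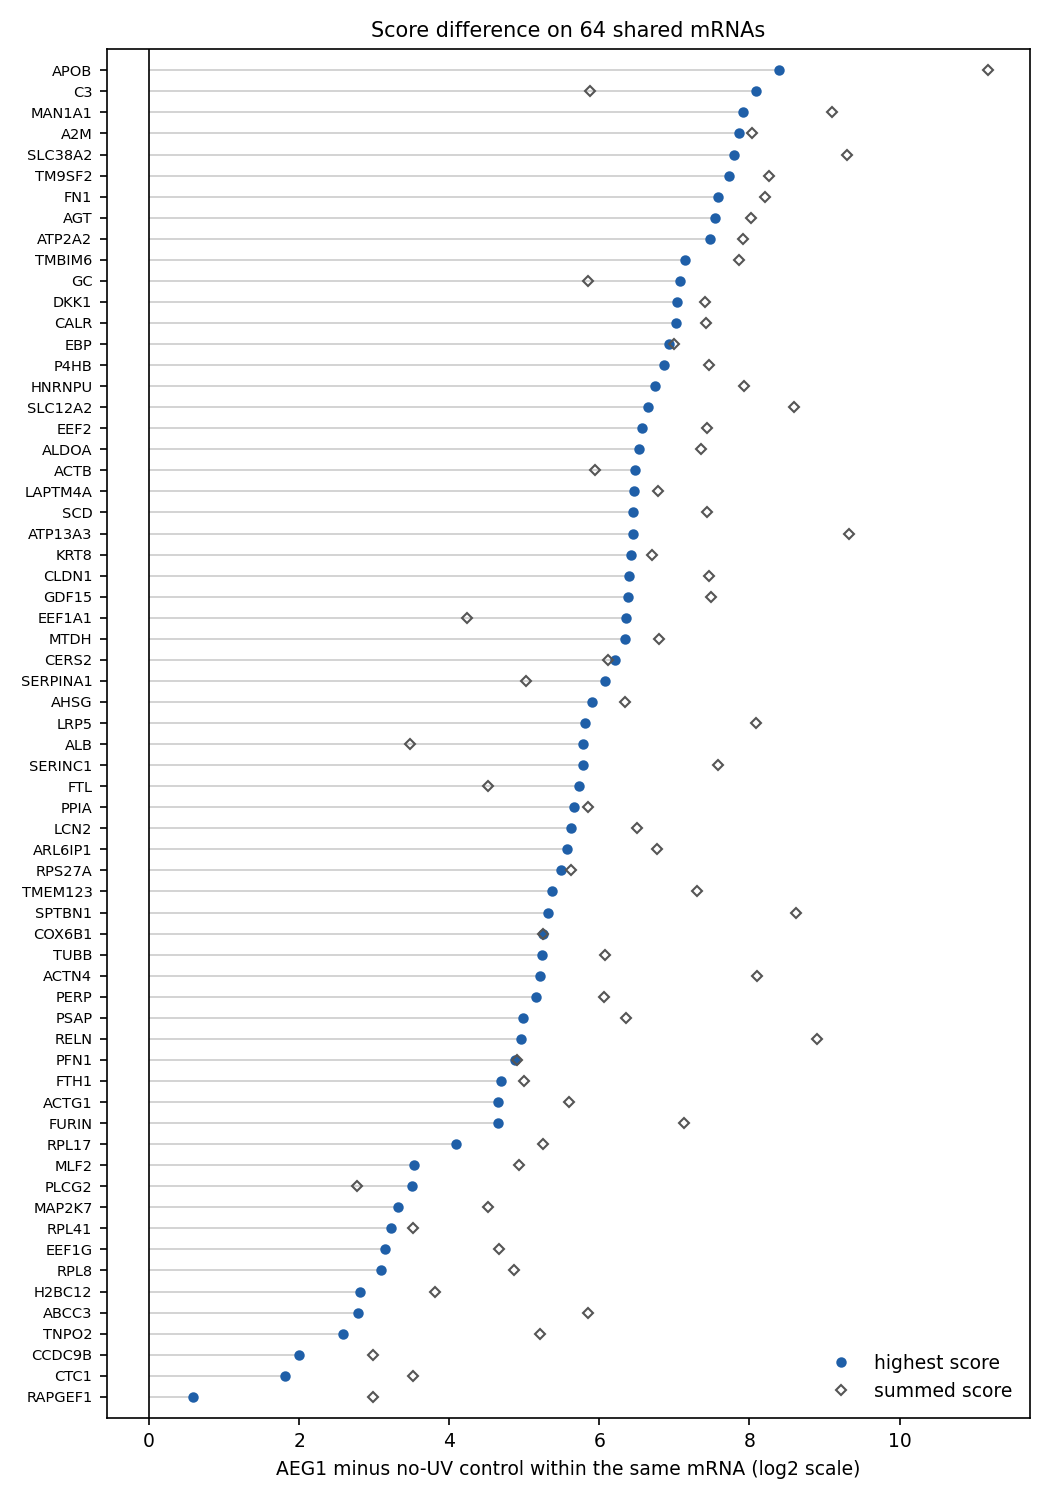
Difference in the authors' score, AEG1 minus no-UV control, within 64 of the 65 mRNAs that had sites in both libraries (log2 scale, 1 row per mRNA, 1 library a side, so no error bars); filled circles use the highest score and open diamonds the sum over all sites. All points lie above 0, from 0.59 on RAPGEF1 to 8.39 on APOB for the highest score.

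The mRNAs of plasma proteins spread over most of the range of the summed difference. APOB, the scaffold protein of VLDL and LDL, had 1 control site, nt 1072 to 1142 at a score of -0.26, against 23 AEG1 sites that covered 97.7% of the mRNA, with a highest score of 8.13. Its differences, 8.39 for the highest score and 11.18 for the sum, were the largest of the 65 mRNAs. FN1, the matrix protein fibronectin, had 3 control sites with scores of -1.68 to -0.60 against 12 AEG1 sites with a highest score of 6.98, a summed difference of 8.20. A2M, a protease inhibitor, had 2 control sites with a highest score of 0.05 against 5 AEG1 sites reaching 7.91, a summed difference of 8.04. ALB lay at the other end, with a summed difference of 3.48. Its highest-score difference, 5.79, was close to the median of all shared mRNAs.

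Other plasma proteins lay between these. SERPINA1, or alpha-1-antitrypsin, had 4 control sites with scores of -0.69 to 1.31 against 10 AEG1 sites reaching 7.38, a summed difference of 5.02. GC, the vitamin D binding protein, had 3 control sites with scores of 11.58 to 13.16 inside a single AEG1 site at 20.23, a summed difference of 5.85. AHSG, or fetuin-A, had 2 control sites, with scores of -1.79 and -2.87, and 4 AEG1 sites reaching 4.11, a summed difference of 6.34. AGT, the precursor of angiotensin, had 1 control site at 0.21 against 6 AEG1 sites reaching 7.75.

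The 4 mRNAs with the smallest difference had isolated, mostly narrow control sites. On RAPGEF1, a guanine nucleotide exchange factor for Rap GTPases, the control site ran from nt 5098 to 5145 with a score of 6.04, and the AEG1 site over it from nt 5102 to 5177 also had a score of 6.04. The highest of its 9 AEG1 scores was 6.63, at nt 678 to 765, so the difference for the mRNA was 0.59. CTC1, a telomere maintenance protein, had a control site at nt 5202 to 5232 (score 9.73) and an AEG1 site at nt 5202 to 5233 (11.31), a site difference of 1.58. CCDC9B had a control site at nt 5131 to 5155 (10.75) and an AEG1 site at nt 5085 to 5159 (12.75), a difference of 2.00. TNPO2, a nuclear import receptor, had a control site at nt 3017 to 3042 (5.99) and an AEG1 site at nt 3017 to 3051 (8.58). On these 4 mRNAs AEG1 sites covered 5.65% to 23.7% of the mRNA, against a median of 86.9% over the 65 shared mRNAs. The next smallest differences, 2.78 to 3.32, were mixed. ABCC3 and MAP2K7 had control sites of 19 and 26 nt, with AEG1 cover of 53.9% and 24.2%. H2BC12, RPL8, EEF1G and RPL41 had control sites of 54, 67, 115 and 138 nt, with AEG1 cover of 85.5% to 90.2%.

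Control sites of 31 nt or less numbered 8, on SPN, ABCC3, TMEM123, CCDC9B, MAP2K7, TNPO2, C3 and CTC1. The limit was set after the widths were seen, at the gap between 31 and 36 nt. On the 7 that an AEG1 site overlapped, the score difference had a median of 2.58 and ranged from 1.58 to 6.47. The 113 wider control sites had a median of 6.75 and quartiles of 5.25 and 7.68. The overlapping AEG1 sites had median widths of 75 and 1394 nt. The SPN site, nt 2904 to 2926 with a score of 10.93, was the only control site with no PAR-CLIP AEG1 counterpart; SPN encodes sialophorin, a surface glycoprotein of leukocytes.

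The control sites fell where AEG1 sites were wide. The 73 AEG1 sites that overlapped a control site had a median width of 605 nt, against 73 nt for the other 60012, and 72.6% of them (60.9 to 82.4) against 2.26% (2.15 to 2.39) were 300 nt or more. A wider site has more room to be overlapped, so part of this is built in. On the same 65 mRNAs, the 576 AEG1 sites that overlapped no control site had a median width of 105.5 nt. Taken per mRNA, the widest AEG1 site had a median of 752 nt on the 65 mRNAs with a control site and 114 nt on the 7944 without. The share of the mRNA under AEG1 sites had medians of 86.9% and 22.2%. On 27 of the 65 it was 90% or more, and on 6 it was under 25% (PLCG2, CCDC9B, CTC1, RAPGEF1, TNPO2 and MAP2K7). The furthest site end, a stand-in for mRNA length, differed less, with medians of 2654 and 2058.5 nt, as did the number of AEG1 sites, 6 and 5.

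**Figure D4:**
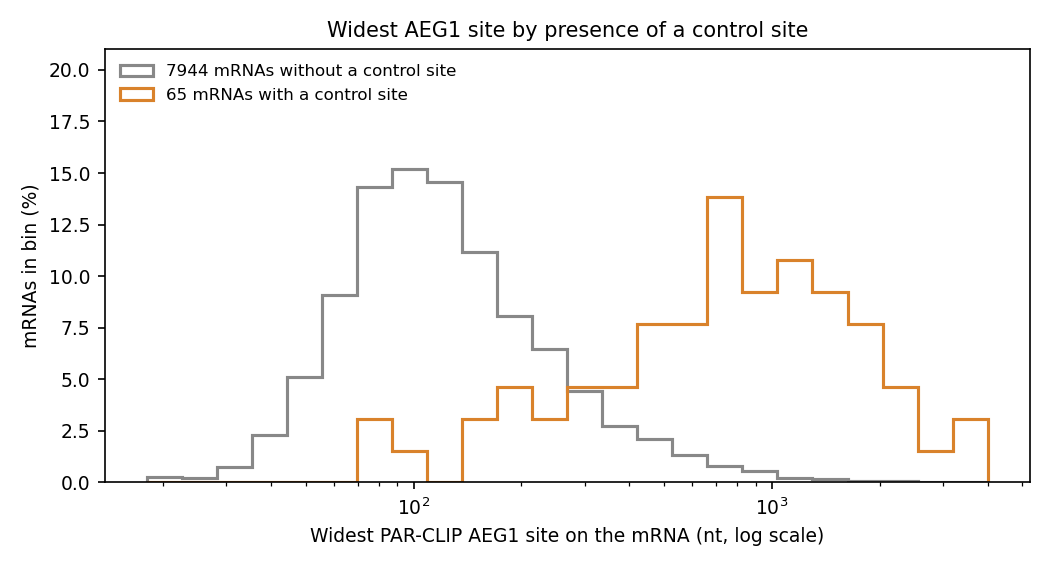
Widest PAR-CLIP AEG1 site on each mRNA (horizontal axis, nt, log scale) as a percentage of mRNAs per bin (vertical axis), for the 65 mRNAs that also had a control site and the 7944 that did not. The group with a control site is shifted to wide sites, with a median of 752 nt against 114 nt, and both groups contain mRNAs with sites over 1000 nt.

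Ranking by width and ranking by number of sites picked different mRNAs. Over all 8009 transcripts with an AEG1 site, 65 (0.812%) held a control site. Among the 100 with the widest AEG1 site, 29 did, and among the 20 widest, 8 did, among them C3, ATP2A2, A2M, FN1, ALB, SCD and APOB. The 12 of those 20 without a control site included the cytosolic chaperones HSP90AA1, HSP90AB1 and HSPA8, with sites of 2897, 2342 and 2227 nt, the transferrin receptor TFRC with 2498 nt, and the oligosaccharyltransferase subunits STT3A and RPN1 with 2467 and 2031 nt. Among the 100 transcripts with most AEG1 sites, 1 held a control site. That was RELN, the secreted glycoprotein reelin, with 70 AEG1 sites and 1 control site at a score of 3.65. UBR4 and HUWE1, both ubiquitin ligases, DYNC1H1, the dynein heavy chain, and DST, a cytoskeletal linker, held 90, 86, 88 and 83 AEG1 sites, none wider than 572 nt, and no control site.

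Control sites lay nearer to the start of the mRNA than AEG1 sites by midpoint, and the gap was smaller when every covered nt was counted. On the 65 shared mRNAs, the median midpoint was at 0.387 of the furthest site end for 120 control sites (95% interval of the median 0.339 to 0.494) and at 0.589 for 649 AEG1 sites (0.553 to 0.616). The quartiles were 0.220 and 0.657 in the control and 0.306 and 0.811 in AEG1. When every covered nt was counted in place of 1 midpoint per site, the medians were 0.388 and 0.485. The first AEG1 site began within the first 100 nt on 38 of the 65 mRNAs (58.5%), against 14.9% of the 7944 AEG1 mRNAs without a control site. The first control site did so on 4 of 66 (FTL, FN1, AHSG and H2BC12). AEG1 listed more and wider sites on the shared mRNAs, so part of its earlier first start is built in. The coding sequence and UTR boundaries of these mRNAs were not analysed here.

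Functional lists were covered broadly by AEG1 sites and thinly by control sites. Of all 20056 protein-coding genes of the RefSeq table, 39.8% had a PAR-CLIP AEG1 site and 0.329% a control site; of those with an AEG1 site, 0.815% also had a control site. In the 5 endomembrane lists, 191 of 211 members had an AEG1 site (90.5%) and 16 a control site (7.58%, 4.40 to 12.0). In the 6 cytosol and nucleus lists, 241 of 247 had an AEG1 site (97.6%) and 14 a control site (5.67%, 3.13 to 9.33). The control intervals of the pools overlap. With only sites above the median AEG1 score over all mRNAs, the AEG1 shares were 69.2% and 55.5%. Scores are not on one scale across mRNAs, so no order of the pools is read from that cut.

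**Figure D5:**
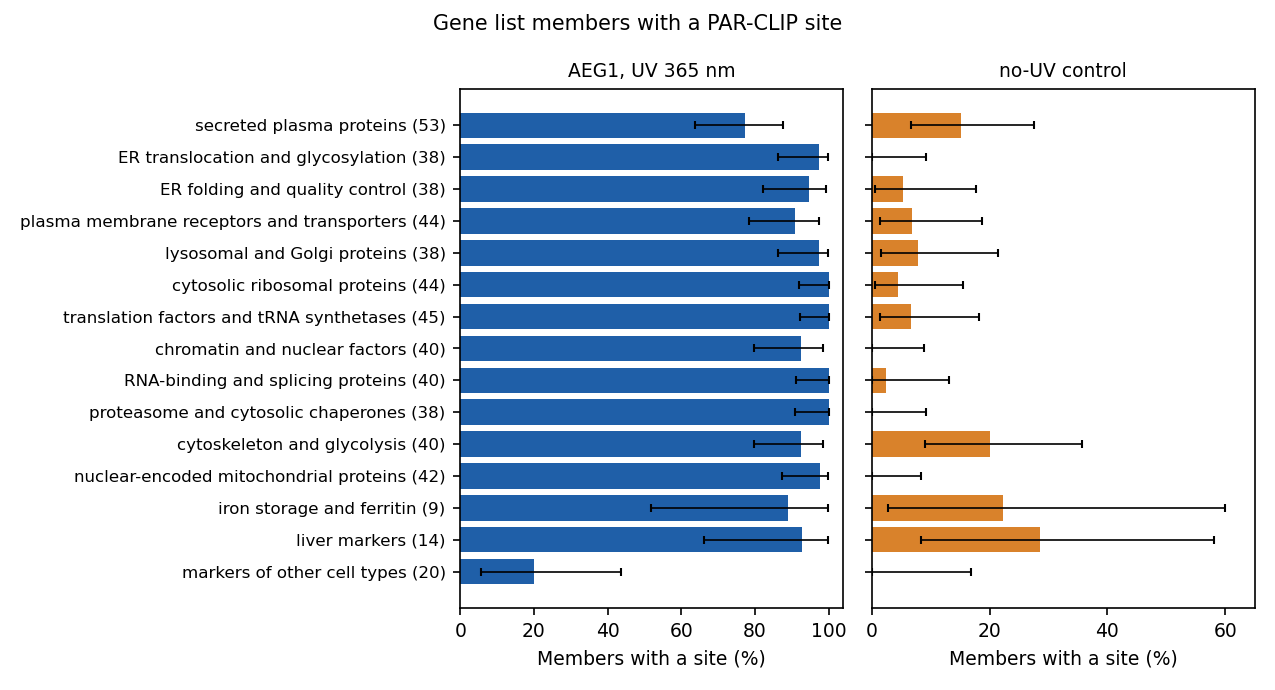
Percentage of the members of 15 gene lists (number of members in parentheses) with at least 1 site in PAR-CLIP AEG1 (left) and in the no-UV control (right, on an expanded axis that ends at 65%); whiskers are exact 95% binomial intervals for counting error. In AEG1 every list apart from the markers of other cell types is above 75%, and in the control no list drawn is above 28.6%.

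Secreted plasma proteins held most control sites, 38 on 8 of 53 members (ALB, C3, SERPINA1, GC, FN1, A2M, AHSG and APOB). They were also the protein class with the lowest share in PAR-CLIP AEG1, 41 of 53 (77.4%), and the 12 members without an AEG1 site, among them PLG (plasminogen), HPX (hemopexin) and SERPINC1 (antithrombin), had no control site. The latter is not particular to this list, since 65 of all 66 control transcripts also held an AEG1 site. The list of cytoskeletal proteins and cytosolic metabolic enzymes had 8 of 40 members in the control and 37 in AEG1. Actins ACTB and ACTG1 held 2 control sites each, with highest scores of 2.09 and 0.62 against 8.56 and 5.27 in AEG1. TUBB (a beta-tubulin), KRT8 (a keratin of simple epithelia), PFN1 (profilin, which binds actin), ACTN4 (alpha-actinin), SPTBN1 (a spectrin) and the glycolytic enzyme ALDOA held 1 each. On PFN1 the control site at nt 863 to 937 had a score of 4.17, and the AEG1 site from nt 570 to 1328 had 9.05.

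Translation genes had few control sites beyond EEF1A1. EEF2, which moves the ribosome along the mRNA, and EEF1G had 1 control site each, with scores of -0.06 and 3.04 against highest AEG1 scores of 6.52 and 6.19, so 3 of the 45 translation factors and synthetases were in the control and all 45 in AEG1. Of 44 ribosomal proteins, all had an AEG1 site and 2, RPL8 and RPS27A, a control site. RPL17 and RPL41, which were not on that list, also had 1 control site each, at scores of 2.44 and 0.14 against 6.53 and 3.36 in AEG1. Ferritin, the iron store, was present through both chains. FTL held 3 control sites with scores of 0.42 to 2.09 inside 1 AEG1 site at 7.82, and FTH1 held 1 at 0.00 inside an AEG1 site at 4.69.

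Endoplasmic reticulum, membrane and lysosomal genes had scattered single control sites. Of ER folding genes, 36 of 38 had an AEG1 site and 2 a control site. These were CALR (calreticulin, an ER chaperone that binds calcium), at 1.16 against a highest AEG1 score of 8.19, and P4HB (protein disulfide isomerase), at 0.19 against 7.05. Of 44 plasma membrane receptors and transporters, 40 had an AEG1 site and 3 a control site, among them ABCC3 and SLC38A2. Of 38 lysosomal and Golgi proteins, 37 had an AEG1 site and 3 a control site: PSAP (the precursor of saposins) at 4.29 against 9.28, FURIN (a Golgi protease) at 7.21 against 11.86, and MAN1A1 (a Golgi mannosidase) at 2.15 against 10.07.

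Several lists had no control site at all. None was listed on 38 ER translocation and glycosylation genes (37 with an AEG1 site), 38 proteasome and cytosolic chaperone genes (38), 42 nuclear-encoded mitochondrial proteins (41) or 40 chromatin and nuclear factors (37). With lists of this size, 0 members allow a share of up to 8.41% to 9.25%. That range holds both the 0.815% of all protein-coding genes with an AEG1 site and the 6.21% of members over all lists. The zeros therefore do not set these lists apart. Among these lists, chromatin and nuclear factors had a median widest site of 157 nt and 18.9% of the mRNA under sites, against 381 nt and 77.8% for the proteasome and chaperone list. Over all protein-coding genes with an AEG1 site these values were 114 nt and 22.5%. Of 40 RNA-binding and splicing proteins, all had an AEG1 site and HNRNPU 1 control site, at 1.35 against 8.09.

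Of the 66 control genes, 33 were on no list. Those described here were chosen after their values were seen. They include SCD, a fatty acid desaturase of the ER membrane, with 2 control sites reaching 3.53 against 9.99 in AEG1, and CERS2, a ceramide synthase, with 2 reaching 5.30 against 11.51. EBP, a sterol isomerase, had 1 at 4.96 against 11.90, and ATP2A2, the calcium pump of the ER, 1 at 4.98 against 12.46. Among secreted proteins, DKK1, a Wnt antagonist, had 1 at 6.83 against 13.87, LCN2 (lipocalin) 1 at 9.99 against 15.61, and GDF15, a stress-induced cytokine, 1 at 4.22 against 10.60. PLCG2, a phospholipase, had 2 control sites close together, nt 7953 to 8029 and nt 8111 to 8176, with scores of 12.18 and 11.60. Its single AEG1 site, nt 7940 to 8181 at 15.69, spanned both and made up all of its AEG1 cover, 2.96% of the mRNA.

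MTDH itself, whose tagged product was precipitated in both libraries, had 1 control site at nt 885 to 991 with a score of 6.0. PAR-CLIP AEG1 listed 12 MTDH sites, and the one over the control site, nt 833 to 2107, had the highest score, 12.34. From nt 258 to 2107 the AEG1 sites had scores of 5.00 to 12.34, with 4 sites covering most of the stretch. From nt 2379 to 4449 there were 8 sites of 47 to 124 nt with scores of 4.91 to 7.32, and no control site. Transcripts of the tagged transgene and of the native gene cannot be told apart in these sites. SND1, a known binding partner of AEG-1, had 16 AEG1 sites with a highest score of 7.99 and no control site.

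The PAR-CLIP control shared some mRNAs with the HITS-CLIP controls of the same cells, but its sites were wider. Of the 66 PAR-CLIP control genes, 16 (24.2%, 14.5 to 36.4) had a site in either HITS-CLIP control, which is 17.0% of the 94 genes of those controls. In all 3 controls were 9.09% of the 66, among them ABCC3, ALB, DKK1, GC and SERPINA1. The median site width was 21 nt in each HITS-CLIP control against 71 nt here, and sites of 25 nt or less made up 65% and 67.8% there against 3.31% here. Of the 121 PAR-CLIP control sites, 26 overlapped a HITS-CLIP control site and 100 (82.6%) overlapped sites in both HITS-CLIP AEG1 libraries. These overlaps are not independent. On ALB, the replicate 1 site from nt 344 to 1928 overlapped most of the control sites. The same share over all PAR-CLIP AEG1 sites is not given here. In genes, 62 of the 66 were in both HITS-CLIP AEG1 replicates (93.9%), against 15.5% of the genes with a PAR-CLIP AEG1 site. The 4 others were COX6B1, H2BC12, MLF2 and RAPGEF1.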

How the data were processed

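The libraries were compared as lists of called sites. The submitters' processing notes name Bowtie and state no version. For the site caller, its threshold and any use made of the control or of base changes at crosslinks, the sources used here give nothing. The authors' deposited score was read as a log2 value from its numbers, and its normalization is not stated. Starts were taken as 0-based and are printed 1-based. Coordinates are those of the RefSeq mRNAs in the files, and no genome build is stated. Symbols were updated through a RefSeq gene table (GRCh38.p14): of 8204 transcripts, 8146 matched by accession, 30 by symbol, 20 by synonym, and 8 retained their original symbol.

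A transcript was shared when both libraries listed a site on its accession, and sites overlapped from 1 nt. Shares carry exact Clopper-Pearson 95% intervals and medians carry binomial order-statistic intervals. Genes are named by fixed rules: most control sites, the largest and smallest score differences, most AEG1 sites, the widest control sites and list leaders. Other genes, such as control genes on the lists, those with the widest AEG1 sites and control genes on no list, were chosen after their values were seen. The members, lists and rules were chosen with earlier results of these data known. The overlap code was tested on simulated sites. Python 3.11.15, pandas 2.3.3 and scipy 1.17.1 were used. Alternatives covered short sites, overlap, score summaries, gene identity and leading genes. Values of 1 gene are not reported here, and it stays in the totals.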

Additional observations from a re-analysis of the deposited data

How the results depend on the processing

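Of 86 recomputed values, 64 stayed within their interval or within 1.5 times the count, and 22 moved. The median score difference stayed above 0, but from lowest scores its 95% interval, -0.00017 to 1.08, included 0. The median score difference per mRNA was 3.0 from median scores, 0.084 from lowest scores, 2.28 after subtracting log2 of the width and 6.50 from summed scores, and lowest scores left 26 mRNAs at least 1 higher in AEG1. Sites above the median AEG1 score numbered 30042 in AEG1 and 14 in the control, the latter on 11 genes; endomembrane members with such a site were 69.2% and 1.42%, and cytosol and nucleus members 55.5% and 0%, which turned the order of these pools in AEG1. These scores are not on one scale across mRNAs, so the cut compares between mRNAs and the turned order is not interpreted. Without the 4 mRNAs with most sites the control held 78 sites. Counting every covered nt put the AEG1 median position at 0.485. Without sites of 25 nt or less, the shares of control genes and control sites with an AEG1 counterpart were each 100%, since SPN left. With at least 2 AEG1 sites required, the gene share was 90.9% and that of cytosol and nucleus members 94.7%; file symbols gave 89.1% for the latter. At limits of 20 and 30 nt, short AEG1 sites were 0.0583% and 1.06%. Control genes in both HITS-CLIP controls were 9.09%, and leaving out either HITS-CLIP control gave 15.2% to 18.2%. Subtracting log2 width, summing scores, counting every nt and dropping the 4 genes were chosen after seeing the data. No paired analysis was possible because each PAR-CLIP group has 1 library and no replicate number. Depth is unknown, so mRNAs absent from the control may lie below its reach.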

Other observations

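The narrow control sites tended to recur with the same first base in the HITS-CLIP AEG1 libraries, and less so in the others. Of the 8 control sites of 31 nt or less, 7 began within 1 nt of a site in HITS-CLIP AEG1 replicate 2 and 5 in replicate 1, against 6 and 7 of the 113 wider control sites. In PAR-CLIP AEG1, 2 of the 8 and 0 of the 113 did so. Of the 7 narrow sites that a PAR-CLIP AEG1 site overlapped, 1 overlapped a HITS-CLIP control site, against 25 of the 113 wider sites. On SPN the site ran from nt 2904 to 2926 in the PAR-CLIP control, to 2929 in HITS-CLIP AEG1 replicate 1 and to 2927 in replicate 2. On CTC1 the first base was nt 5202 in the PAR-CLIP control, PAR-CLIP AEG1 and both HITS-CLIP AEG1 libraries. On TNPO2 it was nt 3017 in the same 4 libraries. On ABCC3 the site at nt 1203 to 1221 was listed with the same ends in the PAR-CLIP control and both HITS-CLIP controls, with scores of 8.79, 8.88 and 7.88. The width limit was set after the data were seen, and the cause was not tested.

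A few control sites on mRNAs had no HITS-CLIP AEG1 counterpart in either replicate. They numbered 11 of 121 (9.09%, exact 95% interval 4.63 to 15.7), on ACTN4, ATP13A3, COX6B1, FURIN, H2BC12, MAN1A1, MLF2, PPIA, RAPGEF1, TMBIM6 and TUBB. H2BC12, a histone, had its control site at nt 7 to 60 with a score of 9.55, under an AEG1 site from nt 4 to 158 with 12.36.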
